A study of Mus musculus with 12 samples.

Results

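The clustered replication-dependent histone genes encode the histones that package newly made DNA. They were taken as all genes whose mouse symbol in the GENCODE M21 annotation starts with Hist1h, Hist2h, Hist3h or Hist4h. The annotation holds 70 such genes, 56 named Hist1 on chromosome 13, 10 in Hist2 on chromosome 3, 3 in Hist3 on chromosome 11 and 1 in Hist4 on chromosome 6. The Hist1 cluster holds 55 of the 56, and Hist1h2al lies outside it. Of the 70 genes, 68 had a row among the 49671 genes of the count tables, and Hist1h2bm and Hist1h2bh had no row in the tables used here. By class, the 68 were 6 linker H1, 20 H2A, 17 H2B, 12 H3 and 13 H4 genes, and 3 are annotated as pseudogenes (Hist1h2aj, Hist1h2al and Hist3h2bb-ps).

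The cells were NIH 3T3, an immortalized line of mouse embryo fibroblasts, treated with either the AllStars negative control siRNA (control cells, CTRL-si) or 1 siRNA against Lap2 that targets all isoforms (Lap2-depleted cells, Lap2-si). Lap2 is the product of the Tmpo gene, a protein of the nuclear lamina and nucleoplasm. Each siRNA was combined with serum starvation in 0.3% FBS or with 45 min of stimulation in 15% FBS, giving 4 groups of 3 libraries of total RNA depleted of ribosomal RNA. Nothing in the labels says that the replicates came from separate cultures, so the p-values measure only the spread between these samples. The knock-down is transient and rests on a single siRNA, and a level in a bulk sample cannot tell fewer expressing cells from less RNA per cell.

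Most of these genes are made in S phase only. Their mRNAs are the known exception among animal mRNAs in that they normally end in a short stem-loop bound by SLBP and not in a poly(A) tail, so a library made by poly(A) selection would miss them, while ribosomal depletion keeps them. H2A, H2B, H3 and H4 form the nucleosome core, and H1 binds the linker DNA between nucleosomes. The variants H3.3, H2A.Z and H1.0 are encoded by genes outside the clusters and are made in and out of S phase.

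The stem-loop is shown first, since it defines the family at the RNA level and was not used to choose the genes. It was searched for in the GENCODE M21 transcripts (GRCm38, mm10) as a stem of 6 base pairs around a loop of 4 bases, with the invariant positions of the histone consensus. It was found in 46 of the 70 genes, between 21 and 58 bases after the stop codon (median 31), and in the other 24 it was not found in the annotated transcript. All 34 H1, H2A, H2B and H3 stems began with GGCTCT, whereas the 12 H4 stems began with GGCCCT (10 genes) or GGTCCT (2 genes). The examples below, written as DNA from 5′ to 3′ with the stem in capitals and up to 5 bases on each side, belong to the H1, H2A, H2B and H4 genes on which the results turn. They lie at chr13:23739512-23739527 (+) for Hist1h1c, chr13:23555787-23555802 (+) for Hist1h1d, chr13:21833029-21833044 (-) for Hist1h2ap, chr11:58955172-58955187 (+) for Hist3h2a, chr13:23571843-23571858 (+) for Hist1h2bg and chr13:22040966-22040981 (-) for Hist1h4i.
Hist1h1c: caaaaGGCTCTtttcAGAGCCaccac
Hist1h1d: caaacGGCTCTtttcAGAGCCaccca
Hist1h2ap: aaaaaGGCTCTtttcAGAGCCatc
Hist3h2a: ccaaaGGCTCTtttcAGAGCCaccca
Hist1h2bg: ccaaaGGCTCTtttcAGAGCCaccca
Hist1h4i: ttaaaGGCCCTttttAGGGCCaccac

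The annotated transcript went on for more than 60 bases past the stem-loop in 24 of the 46 genes, by 840 bases in Hist1h1c and 1643 in Hist3h2a, and ended 3 bases after it in Hist1h2ap. A gene count does not tell reads before the stem-loop from reads after it. The span in the deposited counts was the same as in M21 for 47 of the 68 genes with a row. In the others the M21 transcript need not have been counted in full. Near-identical copies limited the counting too. In 36 of the 68 genes with a row, over 50% of the 50-base words of the transcript also occurred in another gene, as was the case for 93.1% of those of Hist1h2ap, 67.6% of those of Hist1h2al and all of those of Hist2h2aa1 and Hist2h3c1. Counts of such genes are uncertain, because reads that fit several genes can be split or dropped. Hist1h1c shared 8.54% of its words, Hist1h1d 2.25% and Hist2h2be none.

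Promoter windows from RefSeq (GRCm38.p6, 250 bases before to 50 bases after the start) were matched to 61 of the 70 genes. A CCAAT box (CCAAT on either strand) occurred in 52 of them (85.2%, against 41.1% of 27025 genes with a window), a TATA box (TATAAA) in 35 (57.4%, against 15.7%) and the octamer ATTTGCAT in 14 (23.0%, against 1.97%). The H1 box AAACACA, searched after the data were seen, was found in 9 windows (14.8%, against 8.22%), among them those of Hist1h1b, Hist1h1c, Hist1h1d, Hist1h1e and Hist1h1t. A CArG box, the motif bound by SRF, was found in 4 windows, of Hist1h2an, Hist1h2bb, Hist1h2bp and Hist2h2ac, and the cyclic AMP response element TGACGTCA in 4, of Hist1h2ag, Hist1h2bj, Hist1h4a and Hist1h4h. These 2 motifs, also searched after the data were seen, occurred in 1.81% and 2.03% of all genes. The windows of Hist1h2an and Hist1h2bp overlap on opposite strands, and the CArG box of each is the same site. Hist1h2ag and Hist1h2bj share their element in the same way. In the windows of Hist1h2an, Hist1h2bp and Hist2h2ac the letters of the CArG box contain those of a TATA box on either strand. The CArG box of Hist1h2bb lies apart from its TATA box. Windows of other neighbouring H2A and H2B genes also overlap, so some sites of each motif were counted for both genes. All motifs were searched on both strands, a site of 1 motif can overlap that of another, and a match describes letters and not binding. The windows of Hist1h1c (chr13:23738557-23738856, +) and Hist1h1d (chr13:23554782-23555081, +), the called genes with the largest serum responses, are printed beside that of Hist1h1a (chr13:23763418-23763717, +), an H1 gene that had 1 read in all. Capitals mark the CCAAT, TATA and H1 boxes on either strand. The window of Hist1h1a holds no H1 box in these letters. An H1 box also lies in the windows of Hist1h1t, with no read in any library, Hist1h1b (40 reads) and Hist1h1e (29 reads). Hist1h1b and Hist1h1e did not pass the test for serum in control cells. Whether the box had a part in the levels was not tested.
Hist1h1c: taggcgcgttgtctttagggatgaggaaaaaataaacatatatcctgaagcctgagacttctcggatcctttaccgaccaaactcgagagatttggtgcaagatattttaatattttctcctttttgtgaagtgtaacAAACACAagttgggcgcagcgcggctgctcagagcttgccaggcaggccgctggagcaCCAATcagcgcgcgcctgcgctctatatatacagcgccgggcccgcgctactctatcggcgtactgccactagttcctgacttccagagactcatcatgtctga
Hist1h1d: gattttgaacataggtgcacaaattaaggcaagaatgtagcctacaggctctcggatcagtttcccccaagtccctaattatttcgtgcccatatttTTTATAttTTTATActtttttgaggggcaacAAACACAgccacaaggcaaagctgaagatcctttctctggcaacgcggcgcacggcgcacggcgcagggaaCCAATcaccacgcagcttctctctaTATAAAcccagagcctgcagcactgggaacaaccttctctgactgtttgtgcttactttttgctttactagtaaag
Hist1h1a: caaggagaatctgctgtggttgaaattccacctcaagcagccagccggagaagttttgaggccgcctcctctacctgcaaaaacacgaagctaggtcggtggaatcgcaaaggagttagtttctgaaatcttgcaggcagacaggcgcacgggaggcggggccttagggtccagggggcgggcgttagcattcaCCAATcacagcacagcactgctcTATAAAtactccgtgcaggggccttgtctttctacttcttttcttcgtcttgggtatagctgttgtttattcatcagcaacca

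The libraries held 18026298 to 26265253 counts each, and no pair of libraries had identical counts. Tmpo was lower in Lap2-depleted cells by 2.61 times in 0.3% FBS (1083 ± 97.3 against 2822 ± 57 normalized counts, SD, n = 3, log2FC of -1.38, SE 0.08) and by 4.50 times in 15% FBS (706 ± 87.0 against 3175 ± 136, log2FC of -2.17, SE 0.08). All 9 fibroblast markers passed the filter, and their summed level was 39542 to 45194 CPM, the counts scaled to a fixed library total, in control and 24375 to 32763 in Lap2-depleted libraries. In tests across all genes, 6 of the 9 were lower and 2 higher with Lap2 siRNA in 0.3% FBS, and 7 lower and none higher in 15% FBS (2 at an unadjusted p under 0.05, none by DESeq2). The shares of all genes were 18.6% lower and 17.8% higher in 0.3% FBS, and 12.1% and 11.4% in 15% FBS. The part of these markers in the Lap2 comparisons below was not tested. The summed markers of epithelial, endothelial and skeletal muscle cells reached at most 1.11 CPM in any library, and Krt18, Myod1 and Myog were at 0 in all 12 libraries. Normalized counts are counts scaled to the mean of the TMM-scaled library sizes.

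Together the histone genes took few reads. They held 452 to 610 reads per library in serum-starved control cells, 1118 to 1827 after serum, 731 to 999 in serum-starved Lap2-depleted cells and 2562 to 3146 after serum, which was 0.0024% to 0.0152% of the counts. A total of 9 genes had no read in any library: Hist1h1t, Hist1h2aa, Hist1h2ba, Hist1h2bb, Hist1h2bn, Hist1h2br, Hist1h4m, Hist2h2aa1 and Hist2h3c1. With 3 counts as the limit that a count of 0 allows over a group, this says that such genes were not detectable at this depth. Of the others, 11 had more than 100 reads over the 12 libraries and 14 had a read in every library. The low counts were not limited to genes with copies, as Hist1h1a and Hist1h1b, which share no 50-base word with another gene, had 1 and 40 reads in all. This limit covers counting error only, whereas the SD and SE values given here measure the spread between libraries.

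**Figure D1:**
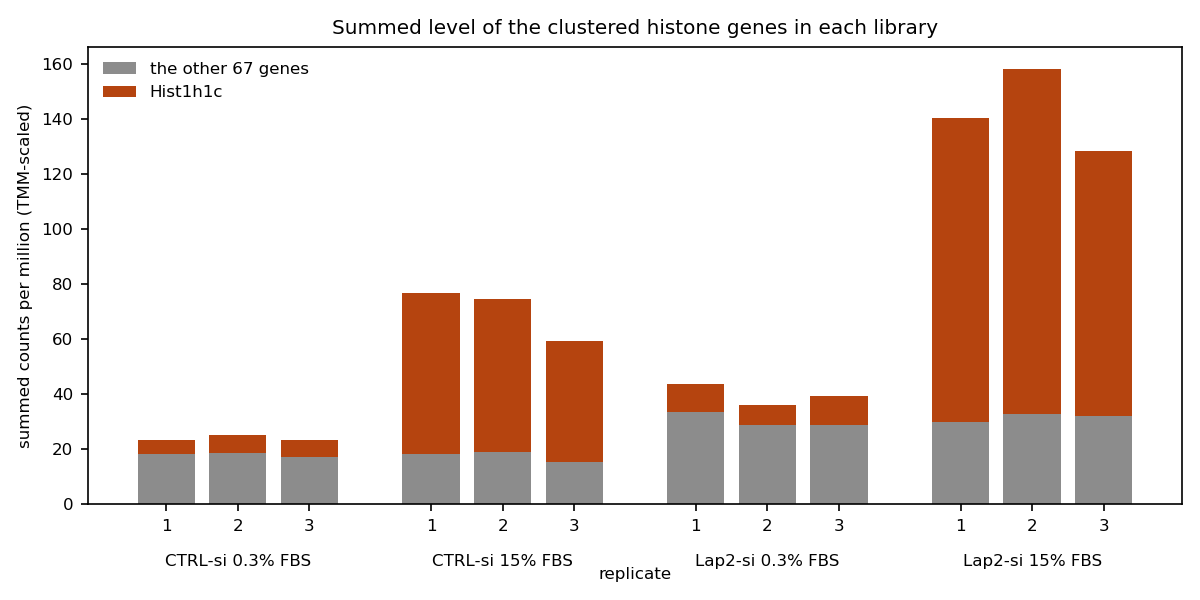
Summed level of the 68 histone genes in each library, in TMM-scaled CPM (y axis), for replicates 1 to 3 of the 4 groups (x axis); the red part of each bar is Hist1h1c and the grey part the other 67 genes. The grey part stays between 15.1 and 19.0 in the 6 control libraries and between 28.6 and 33.5 in the 6 Lap2-depleted libraries, while the red part is large in 15% FBS.

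A single linker histone gene carried most of these reads. Hist1h1c held 64.3% of the 17132 histone reads, between 20.7% and 27.1% of them in the 0.3% FBS libraries and between 74.4% and 79.3% in the 15% FBS libraries. The summed level of all 68 genes was 23.8 ± 1.12 CPM in serum-starved control cells (SD, n = 3), 70.2 ± 9.64 after serum, 39.6 ± 3.73 in serum-starved Lap2-depleted cells and 142 ± 15.1 after serum. Without Hist1h1c the sums were 17.9 ± 0.78 and 17.4 ± 2.03 in control cells and 30.2 ± 2.85 and 31.5 ± 1.58 in Lap2-depleted cells. The sum of the other 67 genes thus overlapped between 0.3% and 15% FBS with either siRNA, and every Lap2-depleted library lay above every control library. No test was made on these sums.

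The classes differed in how they followed this pattern. The H2A sum was 9.16 ± 0.31 and 7.39 ± 1.10 CPM in control cells in 0.3% and 15% FBS, and 17.2 ± 1.64 and 13.9 ± 0.46 in Lap2-depleted cells. The H2B sum was 6.84 ± 0.39 and 6.15 ± 0.75 in control cells, and 9.07 ± 0.80 and 10.8 ± 0.59 in Lap2-depleted cells. The H4 sum was 1.11 ± 0.14 and 1.59 ± 0.05 in control cells, and 2.33 ± 0.26 and 2.26 ± 0.17 in Lap2-depleted cells. The H3 sum was the smallest of the 5, from 0.36 to 0.84 in control libraries and from 1.07 to 1.86 in Lap2-depleted libraries. In each of these 4 classes the control and Lap2-depleted libraries did not overlap within a serum condition. How often sums of other genes do so was not counted. Few genes carried these sums. Hist1h2ap held 1727 of the 3016 H2A reads, Hist1h4i 277 of the 460 H4 reads and Hist2h3c2 122 of the 265 H3 reads. Of the 2072 H2B reads, 998 were of Hist2h2be and 749 of Hist1h2bc. By cluster, the Hist2 sum was 5.32 ± 0.41 and 3.26 ± 0.40 in control cells and 6.34 ± 0.46 and 5.2 ± 0.56 in Lap2-depleted cells, and the Hist3 sum was 2.16 ± 0.25 and 0.94 ± 0.24 in control cells and 1.53 ± 0.77 and 1.84 ± 0.47 in Lap2-depleted cells. Most reads of Hist2 were those of Hist2h2be (998), and most of Hist3 those of Hist3h2a (399).

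Levels between genes can be compared only per length. On the scale of CPM per kilobase of exon, averaged over the 12 libraries, Hist1h1c had 28.6, Hist1h2ap 14.1, Hist1h2al 4.92 and Hist1h2bc 4.05, and these were the 4 histone genes above the median of all tested genes, 2.65. Hist1h2ak (1.65), Hist1h4i (1.53), Hist2h2be (1.5), Hist1h1d (1.30), Hist1h2ae (0.81) and Hist1h2bg (0.80) followed. The spread over libraries of Hist1h2ak, Hist1h4i, Hist2h2be and Hist1h1d was larger than the steps between them. Per length, the variants outside the clusters stood far above, with 316 for H3f3b (H3.3), 222 for H1f0 (H1.0) and 72.0 for H2afz (H2A.Z). With the longest annotated transcript in place of the exons, Hist1h1d, whose longest M21 transcript has 7425 bases, left the 10 highest and Hist3h2a entered them.

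Tests were made on the 37 histone genes that were counted more than once in 3 or more libraries, 4 H1, 12 H2A, 6 H2B, 8 H3 and 7 H4 genes. Differences are log2 fold changes (log2FC) from edgeR's quasi-likelihood test with their standard errors (SE), and a gene was called higher or lower at an adjusted p under 0.05 over all 18668 genes tested. A gene that passed the count filter because it is high in 1 group had more room to differ, so the 37 do not stand for all 68. Only 8 of the 37 averaged 20 or more normalized counts.

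**Figure D2:**
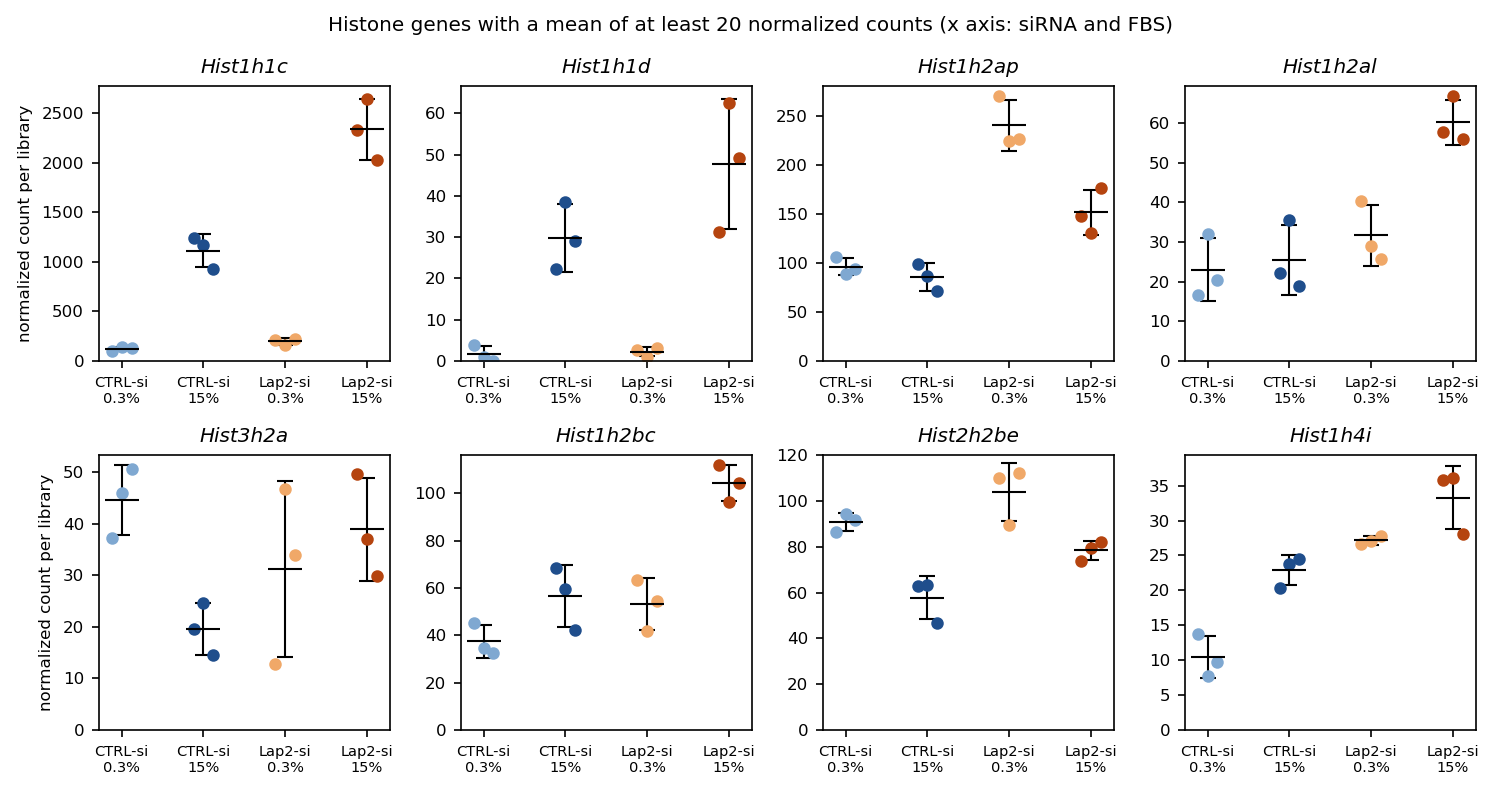
Normalized counts (y axis, linear from 0, a separate scale in each panel) of the 8 histone genes averaging 20 or more normalized counts, in the 4 groups of siRNA and FBS (x axis); points are the 3 libraries of a group and bars the mean ± SD. Hist1h1c and Hist1h1d are high in both 15% FBS groups, Hist1h2ap is highest in serum-starved Lap2-depleted cells, and Hist2h2be is lower in 15% than in 0.3% FBS with either siRNA.

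The first question was how these genes answer 45 min of serum in control cells. Among the called genes, the linker histone genes Hist1h1c and Hist1h1d had the largest log2FC. Of the 37 genes, 4 were called higher (10.8%, against 15.6% of all genes tested) and 2 lower (5.41%, against 13.9% of all). Both shares were below those of all genes, but the 6 calls all fell among the 8 genes averaging 20 or more normalized counts. None of the 29 sparser genes was called. The shares were not set against genes of like counts. The median log2FC of the 37 was 0.00, also with the 6 genes at 0 in a group set to their bound, and that of all genes was -0.01. Hist1h1c, which encodes H1.2, had 104, 139 and 129 normalized counts in 0.3% FBS and 1240, 1171 and 928 in 15% FBS. The groups lie far apart, and the gene rose 8.94 times (log2FC of 3.16, SE 0.13, adjusted p = 4.37e-20). Hist1h1d, which encodes H1.3, had 3.93, 0.87 and 0 normalized counts in 0.3% FBS and 22.2, 38.6 and 29.0 in 15% FBS (log2FC of 4.11, SE 0.58, adjusted p = 6.73e-07). Among all 18668 genes, Hist1h1d ranked 123 and Hist1h1c 299 from the largest increase.

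The other H1 genes were sparse. Hist1h1b (H1.5) had no read in the serum-starved control libraries and 2.66, 2.97 and 0 normalized counts after serum (adjusted p = 0.12). Hist1h1e (H1.4), whose M21 span overlaps that of Hist1h2be on the same strand, had 0, 0.87 and 1.08 and then 5.32, 1.98 and 0 (adjusted p = 0.33). Their log2FC here rest on a few reads and are not given.

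Among the core histones, 1 H4 and 1 H2B gene rose and 1 H2A and 1 H2B gene fell with serum in control cells. Hist1h4i had 13.7, 7.80 and 9.71 normalized counts before and 20.4, 23.7 and 24.5 after serum, with no overlap (log2FC of 1.13, SE 0.36, adjusted p = 0.014). Hist1h2bc had 45.1, 34.7 and 32.4 before and 68.3, 59.3 and 42.4 after, and here the groups overlap (log2FC of 0.61, SE 0.23, adjusted p = 0.040). Hist2h2be, an H2B gene of the chromosome 3 cluster with no stem-loop found in its annotated transcript and an AATAAA polyadenylation signal near its end, fell from 86.4, 94.4 and 91.7 to 63.0, 63.3 and 46.8 (log2FC of -0.65, SE 0.18, adjusted p = 0.0050). Hist3h2a fell from 37.3, 45.9 and 50.7 to 19.5, 24.7 and 14.5 (log2FC of -1.17, SE 0.34, adjusted p = 0.0073). The call of Hist1h2bc was lost with DESeq2 (adjusted p = 0.055), with scaling to total counts (0.17) and with upper-quartile scaling (0.085), and in 5 of the 12 fits without 1 library, where its adjusted p reached 0.23. That of Hist1h4i was lost without replicate 2 of the serum-starved control cells (adjusted p = 0.072).

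In Lap2-depleted cells, the serum log2FC among the called genes was again largest for Hist1h1d and Hist1h1c. Of the 37 genes, 6 were called higher (16.2%, against 18.3% of all) and 1 lower (2.70%, against 14.9% of all), and the median log2FC was 0.29, or 0.07 with the 2 genes at 0 in a group set to their bound, against 0.00 over all genes. Hist1h1c went from 210, 157 and 224 normalized counts to 2332, 2645 and 2029, an 11.8-fold rise (log2FC of 3.56, SE 0.12, adjusted p = 2.79e-22). Hist1h1d went from 2.75, 1.04 and 3.09 to 31.2, 62.6 and 49.3 (log2FC of 4.30, SE 0.52, adjusted p = 4.27e-08). Hist1h1b was at 0, 4.16 and 0 before and 3.47, 24.4 and 3.86 after serum (log2FC of 2.87, SE 1.12, adjusted p = 0.047). This call rests on replicate 2 of the stimulated group, without which the log2FC was 1.37 and the adjusted p 0.51, and it was also lost with DESeq2 (adjusted p = 0.070), under both other scalings (0.058 and 0.056) and in 5 more fits without 1 library. Hist1h1e had 0.92, 0 and 1.03 before and 2.31, 7.42 and 7.73 after (adjusted p = 0.054).

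Of the core histones, Hist1h2bc rose from 63.4, 41.6 and 54.6 to 112, 96.5 and 104 normalized counts in Lap2-depleted cells (log2FC of 0.96, SE 0.21, adjusted p = 0.00032). Hist1h2al, annotated as a processed pseudogene of H2A at chr13:51202727-51203065 outside the cluster, rose from 40.4, 29.1 and 25.8 to 57.8, 66.8 and 56.0 (log2FC of 0.91, SE 0.28, adjusted p = 0.0097), and lost its call without replicate 3 of the serum-starved Lap2-depleted cells (0.057). Hist1h2bg had 3.67, 11.4 and 0 before and 23.1, 18 and 19.3 after (log2FC of 1.98, SE 0.72, adjusted p = 0.031), a call that was lost in 5 of the 12 fits without 1 library (adjusted p up to 0.13). Hist1h2ap went the other way, from 271, 225 and 227 to 148, 130 and 177 (log2FC of -0.66, SE 0.14, adjusted p = 0.00031). Hist2h2be had 110, 89.5 and 112 before and 73.9, 79.5 and 82.1 after, with no overlap, and its adjusted p was 0.070.

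**Figure D3:**
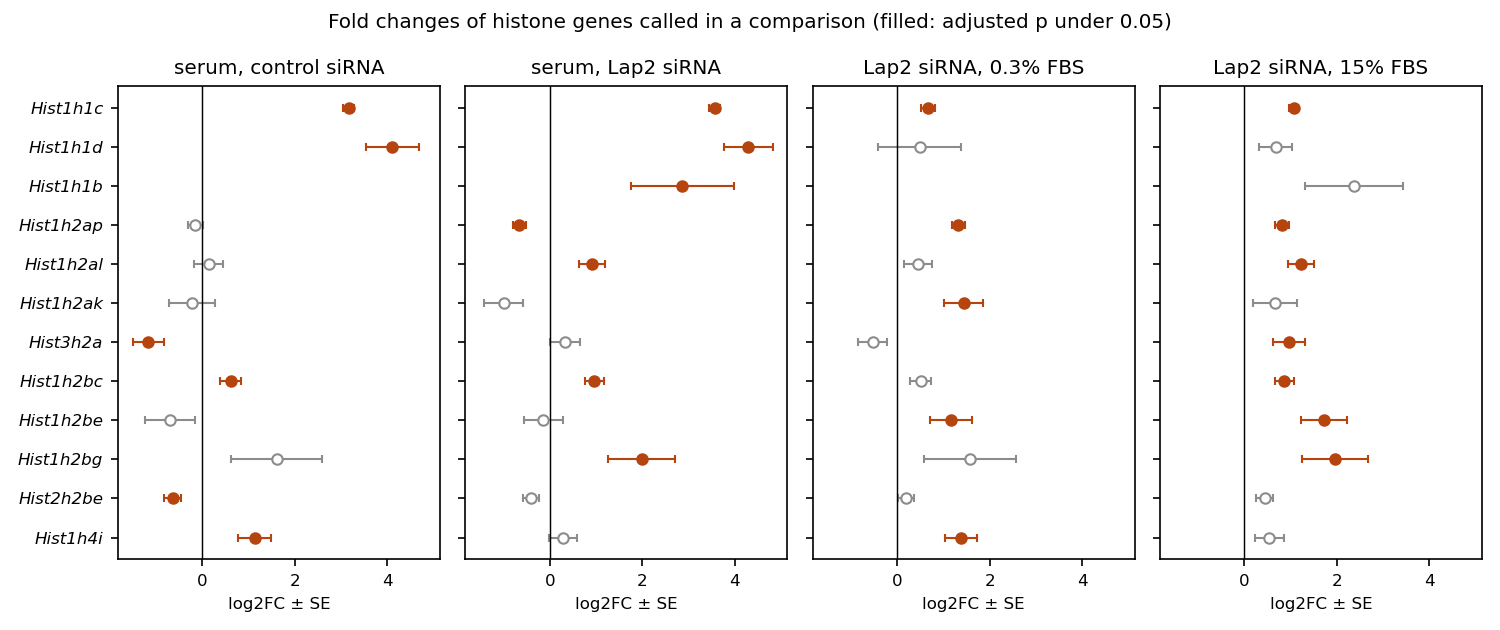
Log2FC ± SE (x axis) of 12 histone genes called in at least 1 comparison (y axis), for serum stimulation with each siRNA and for Lap2 siRNA in each serum condition; filled red points passed an adjusted p of 0.05 and open grey points did not. Hist1h1c is filled in all 4 panels. Hist1h1b has no point in the 2 panels where serum-starved control libraries without reads enter, and Hist1h2bl, at 0 in all control libraries, is not drawn.

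The next question was what Lap2 depletion did in serum-starved cells. Of the 37 genes, 6 were called higher (16.2%, against 17.8% of all), and none lower, where 18.6% of all genes were called lower (edgeR gave 1 gene with an unadjusted p under 0.05 in that direction and DESeq2 called none). The share called higher was close to that of all genes. The median log2FC of the 37 was 0.76, or 0.66 with the 7 genes at 0 in a group set to their bound, against 0.01 over all genes, and 30 of the 37 had a positive log2FC. The median was 0.50 in the 8 genes averaging 20 or more normalized counts (7 positive) and 1.05 in the 29 below that. Some of the latter, such as Hist1h2bl and Hist1h3e, passed the count filter only through Lap2-depleted libraries. Hist1h2ap (H2A) had the smallest adjusted p of the 6 and went from 106, 89.2 and 93.8 normalized counts in control cells to 271, 225 and 227 in Lap2-depleted cells (log2FC of 1.32, SE 0.15, adjusted p = 6.42e-09). The groups are well apart, though the reads of this gene cannot be told from those of its copies over most of its length. Hist1h4i rose from 13.7, 7.80 and 9.71 to 26.6, 27.0 and 27.8 (log2FC of 1.38, SE 0.35, adjusted p = 0.0018), and Hist1h1c from 104, 139 and 129 to 210, 157 and 224 (log2FC of 0.66, SE 0.15, adjusted p = 0.00052).

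The remaining calls in serum-starved cells were on few reads. Hist1h2ak (H2A) had 8.83, 13 and 5.39 normalized counts in control and 21.1, 18.7 and 36.1 in Lap2-depleted cells (log2FC of 1.44, SE 0.43, adjusted p = 0.0078), and lost its call without replicate 3 of the latter (0.084). Hist1h2be (H2B) had 6.87, 12.1 and 6.47 and then 22.0, 19.8 and 16.5 (log2FC of 1.16, SE 0.45, adjusted p = 0.042). Its call was lost with DESeq2 (0.061), with every gene with any count tested (0.053), with only the 2 groups fitted (0.059) and in 4 of the 12 fits without 1 library (up to 0.12). Hist1h2bl (H2B) had no read in control cells and 12 reads over the 3 Lap2-depleted libraries, at least 4.10-fold higher against a floor of 3 counts over the group (adjusted p = 0.019), and lost its call without replicate 2 of the serum-starved control cells (0.057). It was also at 0 in the stimulated control libraries and passed the count filter only through Lap2-depleted libraries, so it had to differ, and in 3 of the 12 fits without 1 library it was not tested. Among the genes that were not called, Hist2h3c2 (H3) had 7.85, 11.3 and 1.08 and then 16.5, 15.6 and 11.3 (adjusted p = 0.15), Hist1h2bc had an adjusted p of 0.082, and Hist2h2be one of 0.40.

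In serum-stimulated cells, 7 of the 37 genes were called higher with Lap2 siRNA (18.9%, against 11.4% of all) and none lower, where 12.1% of all genes were called lower (0 genes had an unadjusted p under 0.05 in that direction with edgeR and DESeq2 called none). The median log2FC was 1.17, or 1.07 with the gene at 0 in a group set to its bound, against 0.02 over all genes, and 34 of the 37 were positive. All 8 genes averaging 20 or more normalized counts had a positive log2FC, with a median of 0.84, and 5 of them were called. The 29 genes below that level had a median of 1.37, and some of them passed the count filter only through Lap2-depleted libraries. Hist1h1c had 1240, 1171 and 928 normalized counts in control and 2332, 2645 and 2029 in Lap2-depleted cells, 2.09 times as many (log2FC of 1.07, SE 0.10, adjusted p = 6.10e-10). Hist1h1d had 22.2, 38.6 and 29.0 and then 31.2, 62.6 and 49.3, which overlap (log2FC of 0.68, SE 0.36, adjusted p = 0.19).

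Among the core histones of serum-stimulated cells, Hist1h2ap rose from 99.4, 87.0 and 71.4 to 148, 130 and 177 (log2FC of 0.81, SE 0.16, adjusted p = 0.00016). Hist1h2al rose from 22.2, 35.6 and 19.0 to 57.8, 66.8 and 56.0 (log2FC of 1.23, SE 0.28, adjusted p = 0.0013), and Hist1h2bc from 68.3, 59.3 and 42.4 to 112, 96.5 and 104 (log2FC of 0.86, SE 0.20, adjusted p = 0.0015). None of these overlap between the siRNAs. Hist1h2be had 5.32, 6.92 and 3.35 and then 12.7, 13.8 and 26.1 (log2FC of 1.73, SE 0.50, adjusted p = 0.0094), and lost its call without replicate 3 of the Lap2-depleted group (0.13). Hist1h2bg had 0.89, 2.97 and 12.3 and then 23.1, 18 and 19.3 (log2FC of 1.95, SE 0.72, adjusted p = 0.046). Its call was lost with DESeq2 (0.063) and in 6 of the 12 fits without 1 library (up to 0.21). Hist3h2a had 19.5, 24.7 and 14.5 and then 49.7, 37.1 and 30.0 (log2FC of 0.97, SE 0.35, adjusted p = 0.041), and lost its call in 7 of these fits (up to 0.19).

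Whether Lap2 siRNA changed the serum response was tested as an interaction, the serum log2FC in Lap2-depleted cells minus that in control cells. Of the 37 genes 1 was called higher (2.70%, against 7.09% of all) and none lower (against 6.51% of all, with 1 gene at an unadjusted p under 0.05 in edgeR and none called by DESeq2). That gene was Hist3h2a, an H2A gene on chromosome 11, with an interaction of 1.5 (SE 0.47, adjusted p = 0.030). It fell with serum in control cells (log2FC of -1.17), while in Lap2-depleted cells it had 12.9, 46.8 and 34.0 before and 49.7, 37.1 and 30.0 after serum (log2FC of 0.32, SE 0.33, adjusted p = 0.51). The 3 serum-starved Lap2-depleted libraries ran from 12.9 to 46.8, beside 14.5 to 50.7 in the other 9, and the interaction lost its call in 7 of the 12 fits without 1 library, with an adjusted p of up to 0.11. Hist3h2a shares its span with Trim17 on the same strand (69 reads over all libraries). For Hist1h1c the interaction was 0.40 (SE 0.18, adjusted p = 0.15), and for Hist1h1d 0.19 (SE 1.22, adjusted p = 0.95), so a difference between their serum responses was not shown. The serum and siRNA comparisons share libraries and are given side by side for that reason.

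The genes of the small clusters stayed near the detection limit, apart from Hist2h2be and Hist3h2a. Of Hist2, 7 of 10 genes were tested, and besides Hist2h2be they were Hist2h2aa2, Hist2h2ab, Hist2h2bb, Hist2h3b, Hist2h3c2 and Hist2h4. Their reads over all libraries ran from 14 (Hist2h3b) to 122 (Hist2h3c2), and none was called in any of the 5 comparisons. Hist2h2aa2 had 51 reads and overlaps the antisense gene Gm20632, which had 639. Whether the counting used the strand is not given in the sources used here, so reads of such a pair cannot be told apart. Hist4h4, the only gene of its cluster, had 20 reads in all (adjusted p from 0.54 to 1.00 over the 5 comparisons), and Hist3h2ba and Hist3h2bb-ps had 3 and 4 and were not tested.

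Within the chromosome 13 cluster, 55 of the genes lie between 21715763 and 23934851 on mm10, a stretch of 2.22 megabases with 187 genes that have a row. Reads were uneven along it. Hist1h1c lies at chr13:23738808-23740367 on the plus strand, and the closest histone genes with a row around it had between 0 and 28 reads over all libraries, Hist1h4c on one side having 3 and Hist1h3c, Hist1h2bb, Hist1h2ab and Hist1h3b on the other having 28, 0, 4 and 4. Hist1h3c, whose nearest end lies 6.17 kb from the start of Hist1h1c on the opposite strand, had a serum log2FC of -1.13 (SE 1.34, adjusted p = 0.60) in control cells. Hfe, a gene for an iron-regulating membrane protein that sits among the histone genes and is not one of them, had 298 reads and a serum log2FC of 0.18 (SE 0.37, adjusted p = 0.79). Hist1h2bc lies 45.9 kb away, at chr13:23684199-23692908. Hfe and these neighbours were named after their values were seen.

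**Figure D4:**
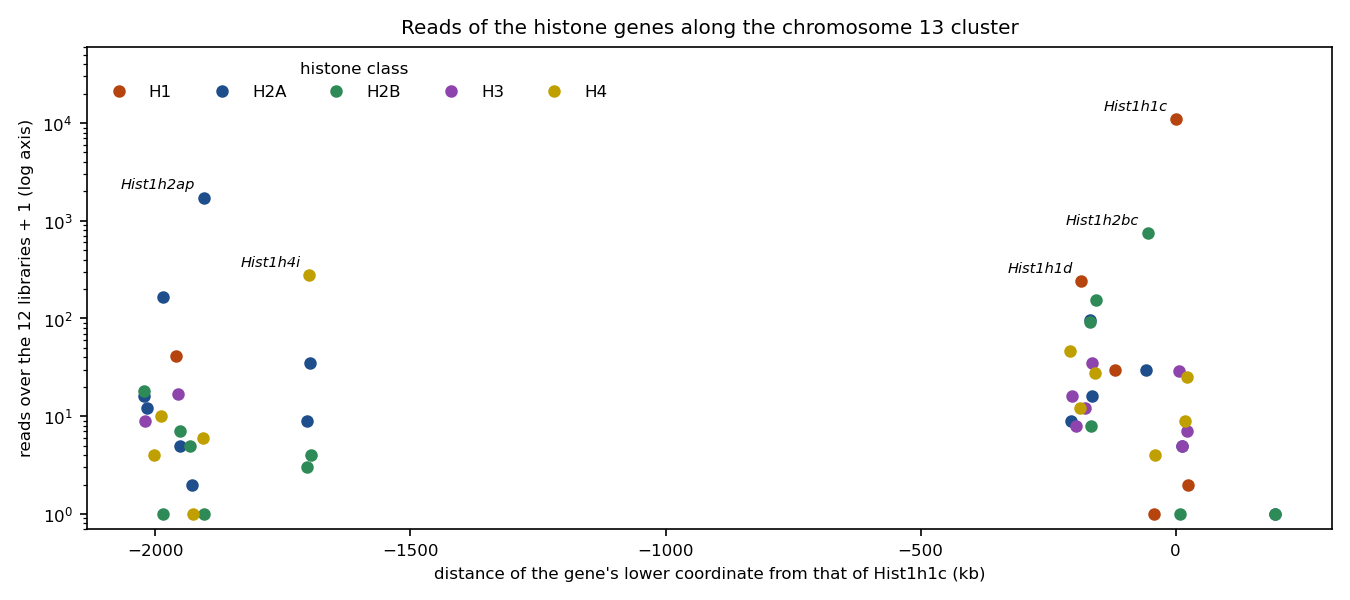
Reads of each histone gene of the chromosome 13 cluster over all 12 libraries, plus 1 so that 0 can be drawn (y axis, log scale), against the distance of its lower coordinate from that of Hist1h1c in kb (x axis); colours are the histone classes, and genes with over 200 reads are named. Hist1h1c stands above its neighbours, and genes at 0 sit beside genes with reads.

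Levels were also set beside the sequence features. The 23 genes with a row whose annotation goes on for over 60 bases past the stem-loop had a median of 28 reads over all libraries, and 17 of them were tested. The 21 genes whose annotation ends within 60 bases of it had a median of 6 reads, with 7 tested, and the 24 with no stem-loop found had a median of 10, with 13 tested. Per kilobase the medians were 0.18, 0.05 and 0.11 CPM. Genes with over 50% of their words shared had a median of 8 reads (17 of 36 tested), and the others a median of 27 (20 of 32 tested). The stem-loop groups follow M21, and only 47 of the 68 genes with a row have the same span there as in the deposited counts. The bases past the stem-loop need not all have been counted in the others. These are descriptions of the annotation and the counts, and length, copies and annotation move together in them.

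Genes that act on histone mRNA or histone proteins were described from lists. Of 14 genes for 3′ end processing, 9 were higher in serum-starved Lap2-depleted cells and none lower (DESeq2 called none, and 0 had an unadjusted p under 0.05), where 17.8% of all genes tested were higher and 18.6% lower. Slbp, which binds the stem-loop, had 1182 ± 50.4 normalized counts in control and 1533 ± 135 in Lap2-depleted cells there (SD, n = 3, log2FC of 0.38, SE 0.07, adjusted p = 8.4e-05), and did not pass the test for serum in control cells (adjusted p = 0.081). Lsm11, a subunit of the U7 snRNP that directs the cleavage, rose with serum from 298 ± 6.49 to 1029 ± 25.6 in control cells (log2FC of 1.79, SE 0.08) and from 369 ± 25.3 to 887 ± 38.2 in Lap2-depleted cells (log2FC of 1.27, SE 0.08), with an interaction of -0.52 (SE 0.12, adjusted p = 0.0018). Zfp473, a zinc-finger protein that acts with the U7 snRNP, fell with serum from 31.9 ± 6.06 to 10.0 ± 6.80 in control cells (log2FC of -1.70, SE 0.44) and from 25.2 ± 4.17 to 2.06 ± 2.12 in Lap2-depleted cells (log2FC of -3.50, SE 0.59).

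Of 4 genes for histone mRNA decay, 1 was higher and 1 lower with Lap2 siRNA in 0.3% FBS (against 17.8% and 18.6% of all genes). Eri1, the exonuclease that trims the stem-loop end, was higher with Lap2 siRNA in 0.3% FBS (log2FC of 0.68, SE 0.08, adjusted p = 2.6e-08) and in 15% FBS (0.57, SE 0.08, adjusted p = 2.5e-06). Of 11 genes of the histone locus body and histone transcription, 5 were higher with Lap2 siRNA in 0.3% FBS (against 17.8% of all genes), led by Ccne2 (log2FC of 1.60, SE 0.14) and Ccne1 (1.11, SE 0.10), the cyclins E that act with Cdk2 at the start of S phase. Under serum in Lap2-depleted cells 7 of the 11 were lower and 0 higher (0 also at an unadjusted p under 0.05 or by DESeq2), against 14.9% and 18.3% of all genes. With Lap2 siRNA in 15% FBS 3 were higher and 2 lower, against 11.4% and 12.1% of all. Npat, the coactivator of histone genes, passed the test in none of the 5 comparisons (adjusted p from 0.11 to 0.97). Coil, a protein of Cajal and histone locus bodies, fell with serum with either siRNA (log2FC of -0.87, SE 0.12, and -0.79, SE 0.12). Of 16 chaperone and assembly genes, 10 were higher and 1 lower in serum-starved Lap2-depleted cells (against 17.8% and 18.6% of all), with the largest rise for Asf1b (log2FC of 1.54, SE 0.12) and Chaf1a (1.00, SE 0.10), which hand H3 and H4 to new DNA, and a fall for Daxx (-0.83, SE 0.09), a chaperone of H3.3. Under serum in Lap2-depleted cells 6 of the 16 were lower and 1 higher, against 14.9% and 18.3% of all genes. With Lap2 siRNA in 15% FBS 4 were higher and 1 lower, against 11.4% and 12.1% of all.

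The 11 genes of replication-independent variants split. In serum-starved Lap2-depleted cells 5 were higher, among them H2afz (log2FC of 0.91, SE 0.08), H2afx (0.50, SE 0.08) and Cenpa (0.80, SE 0.08), and 4 lower, among them H1fx (-1.05, SE 0.13), H2afy2 (-0.81, SE 0.07) and H1f0 (-0.73, SE 0.06). The shares of all genes there were 17.8% higher and 18.6% lower. With Lap2 siRNA the linker variants H1f0 and H1fx were lower, where Hist1h1c was higher, also in 15% FBS (H1f0 -0.38, SE 0.06, and H1fx -0.67, SE 0.13). H3f3b rose with serum in control cells from 14782 ± 769 to 23602 ± 1838 normalized counts (log2FC of 0.68, SE 0.06) and in Lap2-depleted cells (1.08, SE 0.06).

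Since the histone genes are known for S phase, 44 genes of DNA replication were set beside them. In serum-starved Lap2-depleted cells 41 of the 44 were higher and none lower (42 and 0 at an unadjusted p under 0.05, and DESeq2 called 40 and 0), with a median log2FC of 0.79, against 0.01 over all genes. The shares of all genes there were 17.8% higher and 18.6% lower. Tk1 (log2FC of 1.51, SE 0.10), Mcm10 (1.46, SE 0.13), Fen1 (1.40, SE 0.09) and Pole (1.36, SE 0.09) moved most. Under serum in Lap2-depleted cells 39 of the 44 were lower and 1 higher (median -0.46), against 14.9% and 18.3% of all genes. In control cells 16 were higher and 2 lower with serum (median 0.16), against 15.6% and 13.9% of all. With Lap2 siRNA in 15% FBS 15 were higher and 3 lower (median 0.14), against 11.4% and 12.1% of all. The interaction was negative in 30 and positive in none (0 positive at an unadjusted p under 0.05 or by DESeq2), against 6.51% and 7.09% of all. The 12 genes of G2 and mitosis were all higher in serum-starved Lap2-depleted cells (median 0.96) and all lower under serum there (median -0.74). Side by side, the 8 histone genes averaging 20 or more normalized counts had medians of 0.37 for serum in control cells and 0.62 for serum in Lap2-depleted cells. For Lap2 siRNA their medians were 0.50 in 0.3% FBS and 0.84 in 15% FBS. Under serum in Lap2-depleted cells 6 of the 8 were positive, and Hist1h2ap and Hist2h2be were negative. Hist1h1d, with at most 3.93 normalized counts in any 0.3% FBS library, is among the 8 only through its 15% FBS libraries. Over all 37 histone genes tested this serum median was 0.29, or 0.07 with the 2 genes at 0 in a group set to their bound. Whether the replication genes had a part in the histone changes was not tested.

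**Figure D5:**
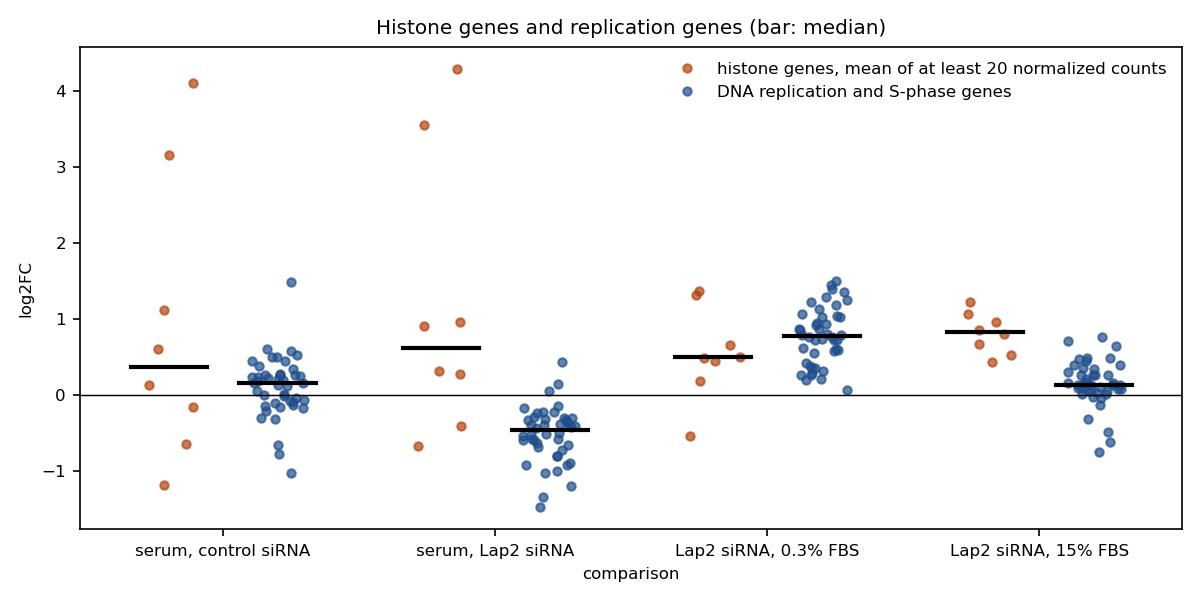
Log2FC (y axis) of the 8 histone genes averaging 20 or more normalized counts (red) and of the 44 DNA replication and S-phase genes (blue) in 4 comparisons (x axis); points are genes and black bars medians. The replication genes lie above 0 for Lap2 siRNA in 0.3% FBS (median 0.79) and mostly below 0 for serum in Lap2-depleted cells (median -0.46), where the histone median is 0.62.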

How the data were processed

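Counts of reads per gene were measured in 12 RNA-seq libraries of NIH 3T3 cells. The authors removed ribosomal RNA, made directional libraries, aligned the reads with TopHat2 at default settings (in Chipster) to mm10, counted them with HTSeq and deposited the raw counts. They took genes with aligned reads above a cutoff of 1 as transcribed and compared groups with DESeq, and the submitters' processing notes also list DESeq2. Versions, annotation and strand setting are not given in the sources used here. Symbols and spans came from GENCODE M21, which matched 99.3% of the 49671 identifiers. The span was the same in M21 and in the deposited counts for 91.5% of the matched genes, and for 47 of the 68 histone genes. Levels per kilobase used the M21 exons inside the deposited span. Sequences came from GENCODE M21 transcripts and RefSeq promoter windows.

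Groups followed the sample titles, which number the libraries in a single run. Replicate numbers were given by that order within each group. In R 4.3.3, edgeR 4.0.16 (TMM, glmQLFit, glmQLFTest, a mean per group) was fitted to the 18668 genes counted more than once in 3 or more libraries, with Benjamini-Hochberg adjustment over all of them. The SE is the absolute log2FC divided by the square root of F. The fit was tested on simulated counts with known changes. The changed genes were drawn only from those above a minimum mean level. Many of the histone genes tested lie below that level, so the simulation does not cover them. Alternatives were DESeq2 1.42.0, other scalings, filters and thresholds, fits of 2 groups, a replicate block and each library left out. Tables and figures used Python 3.11.15, pandas 2.3.3, numpy 2.4.6 and matplotlib 3.10.9. Total counts of 18026298 to 26265253 per library put genes with a few reads at the detection limit.

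The members, gene lists and tests were chosen with earlier results of these data known. Genes named are, for each comparison, the 5 members with the largest and the 5 with the smallest log2FC among those called and averaging 20 or more normalized counts, the 10 highest per length, all tested H1, Hist2, Hist3 and Hist4 members, members with a called interaction, members at 0, Tmpo, up to 4 called genes per list, and Slbp, Npat and Eri1. Called members under that mean were named after their values were seen. For 1 listed gene (Zcchc6) a newer symbol was used to find its row. No protein sequences were used here. 1 list of cell type markers is not reported here.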

Additional observations from a re-analysis of the deposited data

Results flagged for a closer look

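Hist3h2a was the 1 histone gene whose serum response differed between the siRNAs by a test of the difference itself. The difference in log2FC was 1.5 (serum with Lap2 siRNA minus serum with control siRNA, SE 0.47, adjusted p = 0.030, edgeR), with a serum log2FC of -1.17 in control and 0.32 in Lap2-depleted cells. Over the alternatives other than the libraries left out, its adjusted p was at most 0.0375, and it ranged from 0.0058 to 0.11 over all alternatives. The 3 serum-starved Lap2-depleted libraries held 12.9, 46.8 and 34.0 normalized counts, a wider spread than in any other group. Groups of 3 libraries were not searched for a library that stands apart.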

How the results depend on the processing

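None of the 27 called values of histone genes changed sign under an alternative in which the gene was tested. Histone genes called higher for serum with control siRNA numbered 4, and 2 at an adjusted p under 0.01. For serum with Lap2 siRNA 6 were higher, and 3 among the 10 members counted more than once in all libraries. There 1 was lower, 3 with scaling to total counts or upper quartiles, and 2 with filterByExpr (13 members tested) or with that filter. The interaction was called in 1 gene, in 2 with every gene with any count tested, where Hist1h1c was added (adjusted p = 0.0464), and in 0 at an adjusted p under 0.01. The summed level in serum-starved Lap2-depleted cells was 39.6 CPM, and 44.3 with scaling to total counts, and in the other 3 groups it moved by less than 1 SD. Scaling to total counts moved the median log2FC of all genes by -0.21 and -0.23 for serum with control and Lap2 siRNA, and by 0.11 for Lap2 siRNA in 0.3% FBS.

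Without 1 library, the genes called higher and lower ranged from 2 to 4 and 2 to 2 (serum, control siRNA), 3 to 7 and 1 to 3 (serum, Lap2 siRNA), 4 to 7 and 0 to 2 (Lap2 siRNA, 0.3% FBS), 5 to 7 and 0 to 0 (Lap2 siRNA, 15% FBS), and 0 to 2 and 0 to 0 (interaction). Without replicate 2 of Lap2-si 0.3% FBS, 3 genes were lower for serum with Lap2 siRNA, and 2 (Hist3h2a and Hist2h2bb) for Lap2 siRNA in 0.3% FBS. Over all alternatives, 472 values of named members kept their call and 55 lost it. Of the list counts, 437 stayed within 1.5 times of the value given and 53 did not. The cause was not tested.

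With the replicate number as a block, the counts were 4 and 2, 6 and 1, 6 and 0, 7 and 0, and 1 and 0, as without it. Of the 18 pairs of libraries with the same number, 0 had a correlation of deviations over 0.1 (from -0.088 to 0.071), and 7 of 36 best matches had the same number. These numbers only follow the order of the titles within a group. Pairing of the samples in another order was not tested. Members with a few reads are at the limit of the depth.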
